A study of Mus musculus with 6 samples.

Results

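The egg coat and sperm-binding genes of the mouse oocyte are described here from 7 genes: *Zp1*, *Zp2* and *Zp3* of the zona pellucida, *Astl* of the protease ovastacin, and *Cd9*, *Cd81* and *Izumo1r* of the egg plasma membrane. They were chosen by symbol, for these known roles, from the 17577 genes listed in every library, and all 7 were present. To examine oocytes that carry a truncated basonuclin 1, the study compared germinal vesicle (GV) oocytes of *Bnc1*tr/tr mice with those of wild-type (WT) mice, each in 3 libraries. All mice were females of the C57BL/6 J strain, 12 weeks old, and by the study's methods they had received pregnant mare serum gonadotropin before oocytes were taken from antral follicles. *Bnc1*tr/tr mice are homozygous for a germline frameshift allele of *Bnc1*, so every cell of the mouse carries it and not the oocyte alone. Each library holds the amplified cDNA of a single oocyte, made with a modification of Smart-seq2, which copies polyadenylated RNA with a template switch. The study describes the replicates as biological, and the labels do not tie a library to an animal, so p-values measure the spread between these libraries.

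The zona pellucida is the extracellular coat that the growing oocyte secretes around itself. Its filaments are built from glycoproteins of the ZP family, among them ZP1, which cross-links filaments, ZP2, to which sperm bind, and ZP3, the partner of ZP2 along the filament. After fertilization, cortical granules release ovastacin, which cleaves ZP2 and so ends sperm binding. At the plasma membrane JUNO, the product of *Izumo1r*, is held by a glycosylphosphatidylinositol (GPI) anchor and binds IZUMO1 of the sperm, and the tetraspanins CD9 and CD81 act in gamete fusion. Zona genes are transcribed with the basic helix-loop-helix factor FIGLA, which binds the E-box, a short motif written CANNTG.

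RefSeq promoter windows of 300 bases (250 before and 50 after an annotated start, GRCm38.p6) were found for 5 of the 7 genes, *Zp3*, *Astl*, *Cd9*, *Cd81* and *Izumo1r*. Those of *Zp3*, *Izumo1r* and *Cd9*, whose levels did not overlap between the genotypes, are shown beside that of *Cd81*, whose levels did, with each CANNTG in capitals and read 5′ to 3′ on the strand of the gene. The windows of *Astl*, whose levels overlapped as well, are not printed. The windows lie at chr5:135979855-135980154, plus strand (*Zp3*), chr9:14903718-14904017, minus strand (*Izumo1r*), chr6:125494711-125495010, minus strand (*Cd9*) and chr7:143052500-143052799, plus strand (*Cd81*).
Zp3: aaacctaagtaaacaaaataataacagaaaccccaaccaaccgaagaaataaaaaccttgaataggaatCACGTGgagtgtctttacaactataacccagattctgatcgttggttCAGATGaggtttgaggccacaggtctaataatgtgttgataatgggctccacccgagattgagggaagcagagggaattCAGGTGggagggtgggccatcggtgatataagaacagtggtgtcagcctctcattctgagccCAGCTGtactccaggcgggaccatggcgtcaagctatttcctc
Izumo1r: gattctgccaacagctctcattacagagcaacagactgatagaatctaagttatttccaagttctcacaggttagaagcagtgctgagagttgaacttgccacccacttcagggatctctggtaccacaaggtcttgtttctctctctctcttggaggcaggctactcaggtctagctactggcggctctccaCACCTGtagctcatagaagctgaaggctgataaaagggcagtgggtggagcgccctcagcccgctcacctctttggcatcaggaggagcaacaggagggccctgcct
Cd9: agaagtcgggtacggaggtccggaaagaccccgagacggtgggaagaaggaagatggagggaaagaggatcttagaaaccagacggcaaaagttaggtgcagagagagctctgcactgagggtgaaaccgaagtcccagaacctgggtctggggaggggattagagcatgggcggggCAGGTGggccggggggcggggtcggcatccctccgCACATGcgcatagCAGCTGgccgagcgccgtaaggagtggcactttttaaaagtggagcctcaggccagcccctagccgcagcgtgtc
Cd81: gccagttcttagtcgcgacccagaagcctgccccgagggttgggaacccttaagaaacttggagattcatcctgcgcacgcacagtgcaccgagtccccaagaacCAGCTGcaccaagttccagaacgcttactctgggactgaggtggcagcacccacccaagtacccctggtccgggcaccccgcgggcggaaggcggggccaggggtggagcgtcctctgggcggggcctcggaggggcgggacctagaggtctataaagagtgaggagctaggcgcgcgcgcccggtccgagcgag

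*Zp3* held 4 matches to CANNTG, *Cd9* held 3, and *Izumo1r* and *Cd81* held 1 each. Of the 2 windows of *Astl*, 1 held 3 matches and the other held 0. CANNTG is its own reverse complement, so both strands are counted at once, and 72.3% of all 32851 promoter windows of this length held at least 1 match. The narrower CAGGTG, a form of CANNTG searched on both strands, was in the *Zp3*, *Cd9* and *Izumo1r* windows and in 1 *Astl* window, not in that of *Cd81*, and was in 20.2% of all windows. Counted from the start, it lay at position -55 in *Zp3*, at -57 in *Izumo1r*, where it is read as CACCTG, at -73 in *Cd9*, and at -109, -83 and -59 in *Astl*. The GC-rich motif GGGCGG, in 35.7% of windows, occurred in *Cd9* and *Cd81* and in no window of *Zp3*, *Astl* or *Izumo1r*. TATAAA, in 13.6% of windows, occurred in that of *Cd81* alone, at position 7 after the annotated start and not before it. The motif TAATTG, in 8.0% of windows, was in no window of these genes. These matches describe letters in a window and were not tested as sites.

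Values are FPKM, fragments per kilobase of transcript per mega (M) fragments, and are relative to the library, so less RNA of a gene and more RNA of others in an oocyte cannot be told apart. The tables gave no read counts. From the steps between low FPKM values, depth was estimated at 13.3 to 17.2 M fragments in the *Bnc1*tr/tr libraries and 15.2 to 21.96 M in WT, where 3 fragments on a transcript of 1 kb equal 0.137 to 0.226 FPKM. These floors cover counting error only. Oocyte identity was checked with 12 defining markers, all at 1 FPKM or more in all 6 libraries, with summed levels of 14675 to 16781 FPKM in *Bnc1*tr/tr and 12409 to 16019 FPKM in WT. *Bnc1* itself stood at 9.04, 6.51 and 5.83 FPKM in *Bnc1*tr/tr replicates 1 to 3 and at 13.2, 12.5 and 16.2 FPKM in the WT replicates. The groups did not overlap, with a log2 fold change of -0.89 (SE 0.20, limma adjusted p = 0.0090), and a gene level does not show the truncation itself.

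A gene was called higher or lower where limma on log2(FPKM + 1) gave a Benjamini-Hochberg adjusted p under 0.05 over the 10560 tested genes and an absolute log2 fold change over 0.5. Of the 7 egg coat and sperm-binding genes, 1 (*Zp2*) was called lower in *Bnc1*tr/tr oocytes, beside 7.68% of all tested genes, and 0 were called higher, beside 24.1%. Among the 1288 tested genes that averaged 100 FPKM or more, as *Zp1*, *Zp2*, *Zp3*, *Cd9* and *Izumo1r* did, 9.47% were called higher and 9.39% lower. Before adjustment, 4 of the 7 had a p under 0.05, *Zp2*, *Zp3*, *Cd9* and *Izumo1r*, all of them lower, and 0 were higher, beside 12.3% of all tested genes lower and 30.6% higher at that p. The same 4 were lower without overlap between the groups, which held for 14.1% of tested genes, and 0 of the 7 were higher without overlap, against 32.7% of tested genes. The median log2 fold change was -0.50 over the 7 genes and 0.15 over all tested genes, so the centre of the comparison lay above 0. With upper-quartile or median-ratio scaling, which moved that centre to -0.09 and -0.05, *Zp2*, *Zp3*, *Cd9* and *Izumo1r* were all called lower, beside 17% and 14.5% of tested genes, and with quantile normalization *Zp2* alone, beside 17.1%.

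**Figure D1:**
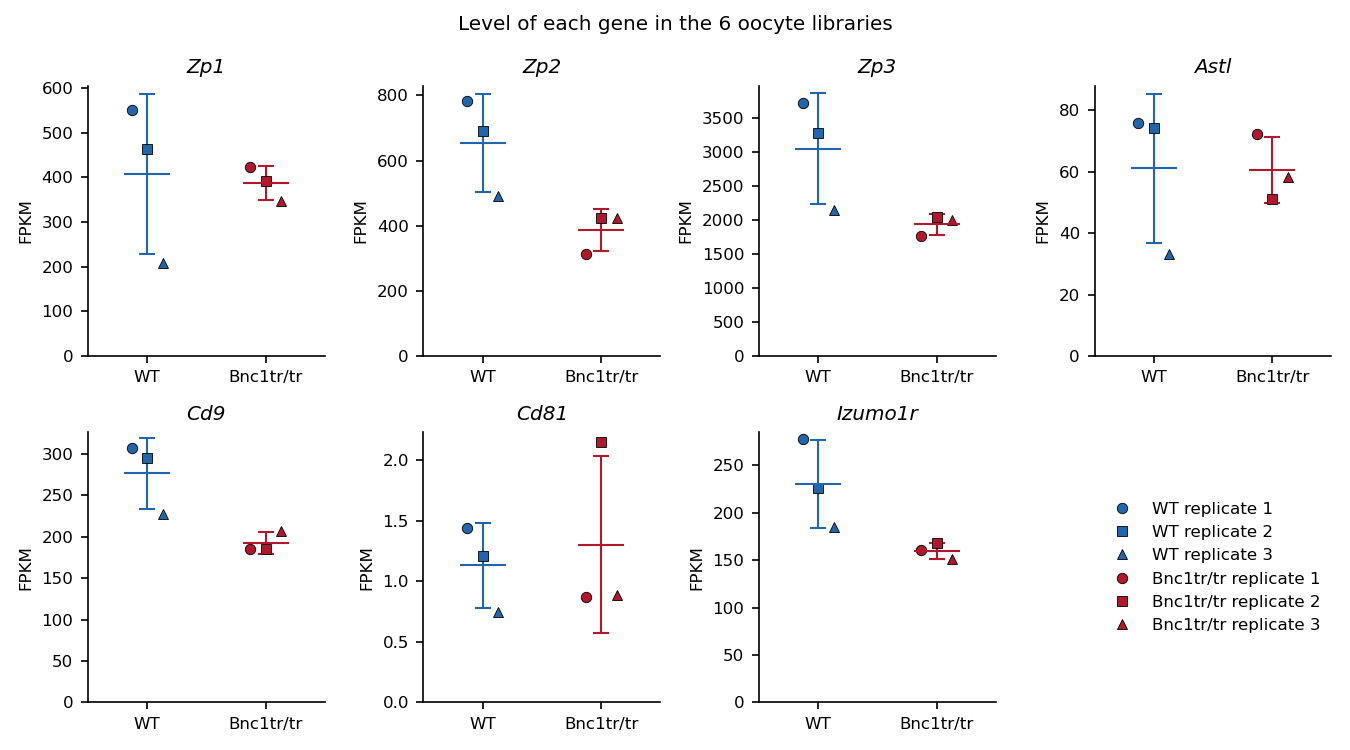
Level in FPKM (vertical axes, from 0, a scale of its own for each gene) of the 7 genes in 3 WT and 3 *Bnc1*tr/tr libraries, with the mean (wide bar) and SD (error bar) of each group. *Zp2*, *Zp3*, *Cd9* and *Izumo1r* were lower in all 3 *Bnc1*tr/tr libraries than in any WT library, and WT replicate 3 (blue triangle) was the lowest WT library for all 7 genes.

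Of the coat genes, *Zp2* was called lower, a call that held in 12 of 21 alternative settings. *Zp3* was lower in every *Bnc1*tr/tr library without reaching the adjusted threshold, and *Zp1* overlapped between the genotypes. *Zp2* (chr7:120126772-120145291, minus strand, 18 exons in its longest coding transcript, GRCm38 in GENCODE M21, as for all gene positions here) measured 313, 423 and 424 FPKM in *Bnc1*tr/tr replicates 1 to 3, against 784, 690 and 491 FPKM in WT. The highest *Bnc1*tr/tr library stayed below the lowest WT library, WT replicate 3. The means were 387 ± 63.5 FPKM (SD, n = 3) and 655 ± 150 FPKM (SD, n = 3), the former 59.1% of the latter. The log2 fold change was -0.74 (SE 0.22, 95% interval -1.25 to -0.24, limma adjusted p = 0.032).

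*Zp3* (chr5:135980099-135988624, plus strand, 8 exons), the most abundant of the 7 transcripts, measured 1758, 2046 and 1993 FPKM in *Bnc1*tr/tr and 3719, 3283 and 2142 FPKM in WT. The groups did not overlap, but WT replicate 3 came within a short distance of *Bnc1*tr/tr replicate 2. The mean of 1932.5 ± 153 FPKM (SD, n = 3) was 63.4% of the WT mean of 3048 ± 814 FPKM (SD, n = 3). The log2 fold change of -0.62 (SE 0.22, 95% interval -1.13 to -0.12) had a limma adjusted p of 0.063.

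*Zp1* (chr19:10914287-10920632, minus strand, 12 exons) measured 422, 392 and 348 FPKM in *Bnc1*tr/tr and 551, 464 and 207 FPKM in WT. The WT values spanned those of *Bnc1*tr/tr on both sides, with WT replicate 3 the lowest of the 6 libraries. The means were 388 ± 37.4 and 407 ± 179 FPKM (SD, n = 3 each). The log2 fold change was 0.04 (SE 0.33, 95% interval -0.71 to 0.79, limma adjusted p = 0.94), of the opposite sign to the difference of the means, and it was below 0 under upper-quartile and median-ratio scaling. An interval this wide includes changes in either direction that are as large as that of *Zp3*.

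Added together, the 3 zona genes took 0.379%, 0.406% and 0.402% of the FPKM of *Bnc1*tr/tr replicates 1 to 3 and 0.752%, 0.652% and 0.392% of that of the WT replicates. On this sum WT replicate 3 lay among the *Bnc1*tr/tr libraries. Within this sum, *Zp3* made up 70.5% to 72.1% of it in *Bnc1*tr/tr and 73.6% to 75.4% in WT. *Zp2* made up 12.6% to 15.3% and 15.5% to 17.3%, and *Zp1* made up 12.6% to 16.9% and 7.29% to 10.9%, in the same order of groups. Each of the 3 shares was without overlap between the genotypes. Shares of a common sum cannot move independently.

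Ratios taken within a library do not depend on how libraries are scaled. In *Bnc1*tr/tr replicates 1 to 3 *Zp1* per *Zp3* came to 0.240, 0.192 and 0.175, against 0.148, 0.141 and 0.0967 in WT, a log2 difference of 0.66. All 3 *Bnc1*tr/tr libraries lay above all 3 WT libraries. *Zp1* per *Zp2* was likewise higher without overlap, at 1.35, 0.928 and 0.821 against 0.703, 0.672 and 0.422, a log2 difference of 0.79. Both had an exact two-sided permutation p of 0.10, the smallest that 3 against 3 libraries can give, and 0.20 after adjustment over the 6 ratios compared, so neither passed 0.05. *Zp2* per *Zp3* was 0.178 to 0.213 in *Bnc1*tr/tr and 0.210 to 0.229 in WT, and these ranges overlapped (log2 difference -0.12, exact permutation p = 0.30, adjusted 0.36). Both *Zp1* ratios kept their direction when WT replicate 3 was left out, with log2 differences of 0.47 and 0.55.

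**Figure D2:**
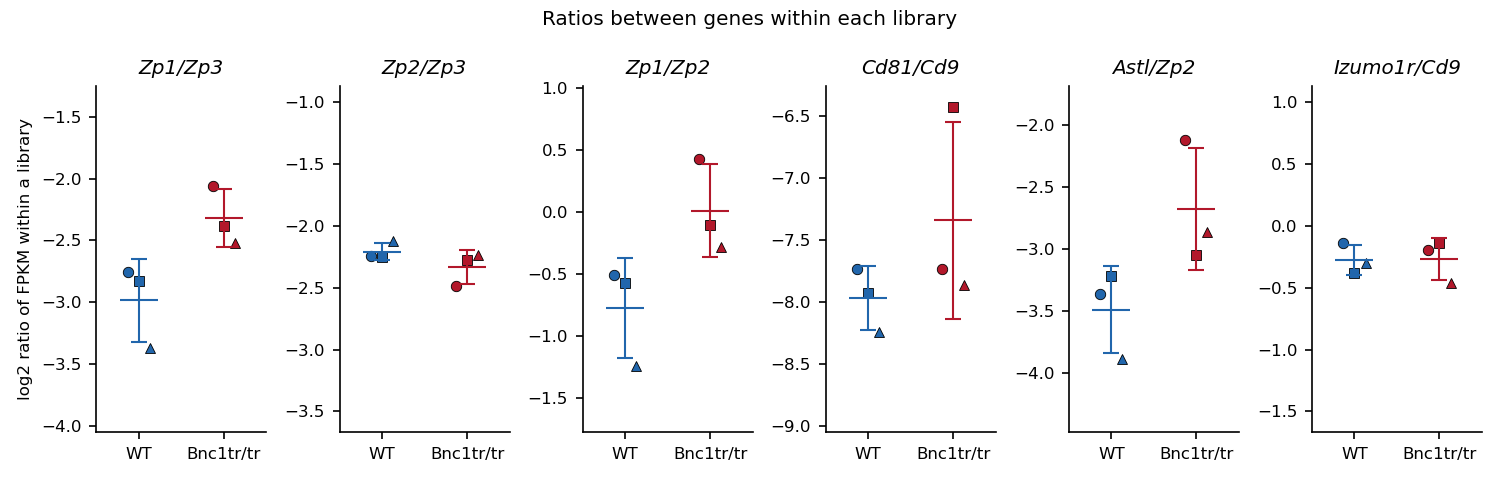
Log2 ratio of FPKM between 2 genes within a library (vertical axes, each spanning an equal range of log2 units) for 6 pairs in 3 WT and 3 *Bnc1*tr/tr libraries, with circles, squares and triangles for replicates 1 to 3, and group means (wide bar) and SD (error bar). *Zp1* per *Zp3*, *Zp1* per *Zp2* and *Astl* per *Zp2* were higher in all *Bnc1*tr/tr libraries, and the other 3 ratios overlapped.

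*Astl* (chr2:127338639-127357651, plus strand, 9 exons), which encodes the protease stored in cortical granules, was present at a level well below that of its substrate *Zp2* in every library. It measured 72.2, 51.1 and 58.4 FPKM in *Bnc1*tr/tr and 76.0, 74.1 and 33.1 FPKM in WT. WT replicates 1 and 2 were the highest and WT replicate 3 the lowest of the 6 libraries. The means of 60.6 ± 10.7 and 61.1 ± 24.2 FPKM (SD, n = 3 each) lay close together, and the log2 fold change of 0.07 (SE 0.31, limma adjusted p = 0.90) was below 0 under upper-quartile, median-ratio and quantile scaling. Its 95% interval, from -0.64 to 0.78, does not exclude a change of the size seen in *Zp3*. *Astl* per *Zp2* was 0.230, 0.121 and 0.138 in *Bnc1*tr/tr and 0.0970, 0.107 and 0.0675 in WT, higher without overlap (log2 difference 0.82, exact permutation p = 0.10, adjusted 0.20).

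Of the egg membrane genes, *Cd9* and *Izumo1r* were lower in every *Bnc1*tr/tr library and did not pass the adjusted threshold, and *Cd81* was near the lower edge of what was tested. *Izumo1r* (chr9:14885814-14903949, minus strand, 5 exons), the receptor of the sperm, measured 161, 168 and 151 FPKM in *Bnc1*tr/tr and 278, 226 and 185 FPKM in WT. The groups were apart, with WT replicate 3 nearest to *Bnc1*tr/tr. The mean of 160 ± 8.63 FPKM (SD, n = 3) was 69.5% of the WT mean of 230 ± 46.5 FPKM (SD, n = 3), with a log2 fold change of -0.50 (SE 0.19, 95% interval -0.93 to -0.08, limma adjusted p = 0.072).

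*Cd9* (chr6:125460266-125494791, minus strand, 8 exons), the tetraspanin without which eggs bind sperm but rarely fuse, measured 184.9, 185.0 and 207 FPKM in *Bnc1*tr/tr and 306, 295 and 228 FPKM in WT. Again the 3 *Bnc1*tr/tr libraries lay below the 3 WT libraries. The mean of 192 ± 12.9 FPKM (SD, n = 3) was 69.7% of the WT mean of 276 ± 42.5 FPKM (SD, n = 3), with a log2 fold change of -0.51 (SE 0.18, 95% interval -0.91 to -0.11, limma adjusted p = 0.056). *Cd9* shares 6.26% of its 31-base words with other annotated genes, most with *Cd9-ps*, and overlaps *Gm28809* and *Gm26728* on the other strand. These overlaps are of whole gene spans, and overlap of exons was not examined. Whether counting used strand is not given in the sources used here, so the part of these genes in the *Cd9* level is not known.

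*Cd81* (chr7:143052739-143067934, plus strand, 8 exons), a close relative of *Cd9*, measured 0.87, 2.15 and 0.89 FPKM in *Bnc1*tr/tr and 1.44, 1.21 and 0.75 FPKM in WT. *Bnc1*tr/tr replicate 2 was the highest of the 6 libraries and the other two lay within the WT range. These levels correspond to an estimated 15.3 to 47.7 fragments per library, above the 0.105 to 0.171 FPKM that 3 fragments would give. The log2 fold change was 0.08 (SE 0.24, 95% interval -0.47 to 0.63, limma adjusted p = 0.84), and was below 0 under all 3 other scalings. The gene span of *Cd81* overlaps that of *R74862* on the other strand. *Izumo1r* per *Cd9* was 0.872, 0.907 and 0.727 in *Bnc1*tr/tr and 0.908, 0.769 and 0.814 in WT, with a log2 difference of 0.0055 (exact permutation p = 1.0). *Cd81* per *Cd9* was 0.0047, 0.0116 and 0.0043 against 0.0047, 0.0041 and 0.0033, with overlapping ranges (log2 difference 0.63, exact permutation p = 0.20, adjusted 0.30).

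WT replicate 3 set much of the spread in WT. It was the lowest WT library for all 7 genes, which held for 49.5% of all tested genes and for 36.5% of the 1288 genes that averaged 100 FPKM or more. Its level was 40.8% of the mean of the other two WT libraries for *Zp1*, 44.1% for *Astl* and 56.6% for *Cd81*, and between 61.2% and 75.8% for *Zp3*, *Zp2*, *Izumo1r* and *Cd9*. This library had the largest estimated depth, 21.96 M fragments, and the fewest genes above 0, 13896 against 14565 and 14576 in the other two, and their part in these levels was not tested. Its depth estimate had the weakest basis of all libraries. The score for regular steps between low FPKM values was 4.75, against 6.28 to 7.04 in the others.

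Without WT replicate 3, *Zp2* (log2 fold change -0.94, limma adjusted p = 0.0081), *Zp3* (-0.86, 0.0062), *Cd9* (-0.64, 0.017) and *Izumo1r* (-0.65, 0.022) were all called lower, beside 9.75% of 10638 tested genes. *Zp1* and *Astl* then turned to -0.39 and -0.32 with adjusted p of 0.13 and 0.23. Without any one of the other 5 libraries limma called 0 of the 7 genes, and the adjusted p of *Zp2* lay between 0.056 and 0.11. With the ordinary limma fit replaced by one with a mean-variance trend and robust variances, on all 6 libraries, the same 4 genes were called lower, beside 7.7% of tested genes.

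**Figure D3:**
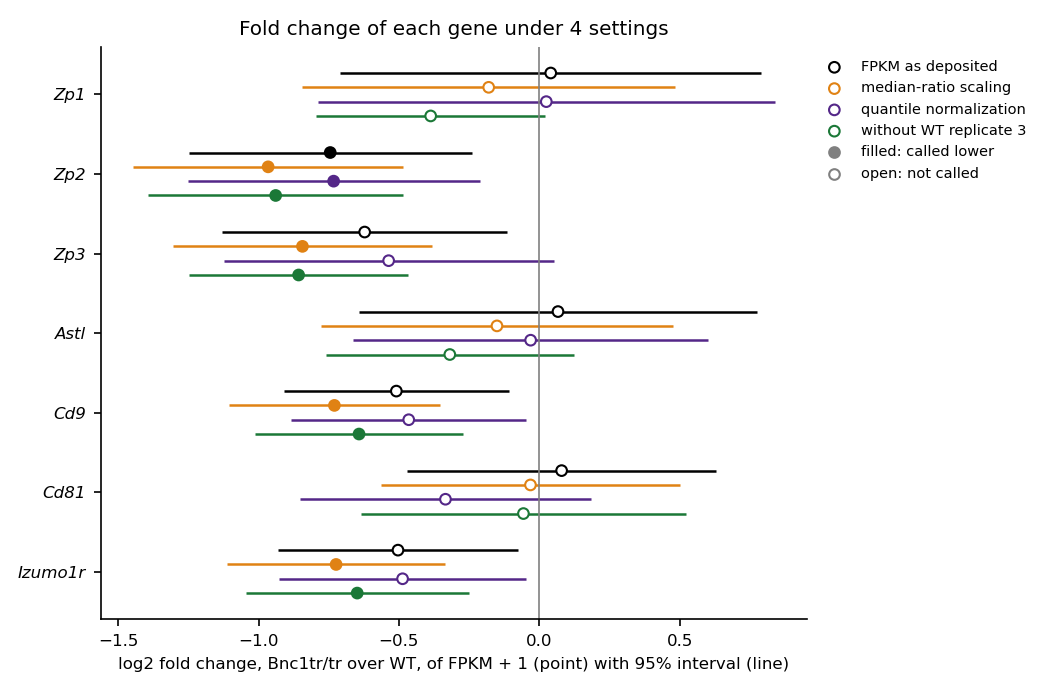
Log2 fold change of FPKM + 1, *Bnc1*tr/tr over WT (horizontal axis), of each of the 7 genes with its 95% limma interval under 4 settings, where a filled point was called lower and an open point was not called. *Zp2* was called under each of the 4 settings, *Zp3*, *Cd9* and *Izumo1r* with median-ratio scaling and without WT replicate 3, and *Zp1*, *Astl* and *Cd81* under none of them.

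In order of mean level per length, WT oocytes had *Zp3* first, then *Zp2*, *Zp1*, *Cd9*, *Izumo1r*, *Astl* and *Cd81*. In *Bnc1*tr/tr the order was the same except that *Zp1* and *Zp2* had nearly equal means. In WT the ranges of *Zp2* and *Zp1*, of *Zp1* and *Cd9*, and of *Cd9* and *Izumo1r* overlapped across libraries, and in *Bnc1*tr/tr those of *Zp1* and *Zp2* alone. Within each WT library *Zp2* was above *Zp1*, whereas *Zp1* was above *Zp2* in *Bnc1*tr/tr replicate 1 and below it in replicates 2 and 3. Among all listed genes *Zp3* ranked between 11 and 38 by FPKM, *Zp2* between 131 and 399, *Zp1* between 208 and 679, *Cd9* between 428 and 737, *Izumo1r* between 468 and 897, *Astl* between 1594 and 2577 and *Cd81* between 9059 and 11290.

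**Figure D4:**
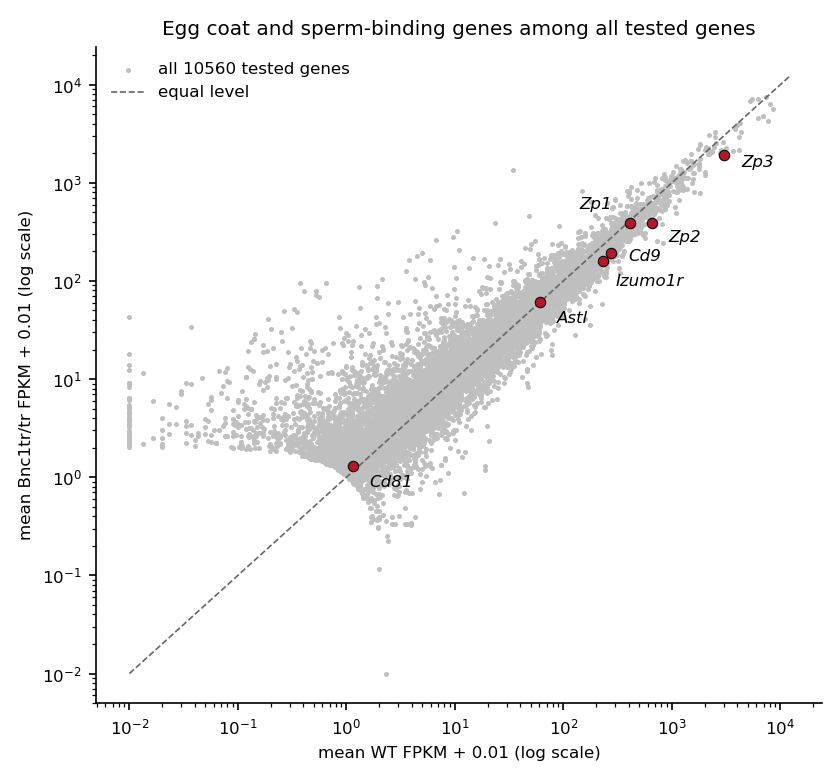
Mean FPKM + 0.01 in 3 WT libraries (horizontal, log scale) against 3 *Bnc1*tr/tr libraries (vertical, log scale) for the 10560 tested genes (grey) and the 7 egg coat and sperm-binding genes (red), with equal levels on the dashed line. *Zp3*, *Zp2*, *Cd9* and *Izumo1r* lie below the line, and *Zp1*, *Astl* and *Cd81* lie near it.

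By Pearson's r of log2(FPKM + 1) over the 6 libraries, given as a description of libraries that form 2 genotype groups, *Zp2*, *Zp3*, *Cd9* and *Izumo1r* resembled each other, with r from 0.917 (*Zp2* with *Izumo1r*) to 0.974 (*Zp2* with *Zp3*). Many other genes came closer: among 5282 genes ordered by likeness to *Zp2*, *Zp3* held place 31 and *Izumo1r* place 196. *Zp1* resembled *Astl* (r = 0.944) more than *Zp2* (r = 0.354) or *Zp3* (r = 0.535). All 7 genes share the low value of WT replicate 3, which enters every r. Of the genes that averaged 10 FPKM or more, the 3 most like *Zp1* were *Btrc*, *Fbxw17* and *Tk2* (r = 0.992 to 0.991), and those most like *Zp2* were *Zwilch*, *Hspa8* and *Me2* (r = 0.991 to 0.988). *Zp3* was closest to *Stub1*, *Gnl2* and *Mtif3* (r = 0.996 to 0.994) and *Astl* to *Laptm4b*, *Thoc3* and *Vps72* (r = 0.997 to 0.987). For *Cd9* they were *Tdrd3*, *Tuba3b* and *Nipsnap1* (r = 0.997 each), for *Izumo1r* *Ildr1*, *Tmem106c* and *Spata5* (r = 0.996 to 0.992), and for the low-level *Cd81* *Zfp383*, *Tmem203* and *Rfc3* (r = 0.974 to 0.948). Among 5282 or more genes, some reach such values with only 6 points.

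Genes linked to the 7 by function, family or secretion from the oocyte were taken from 9 lists written from general knowledge. Of 141 listed genes 129 were in the tables and 85 were tested, of which 17 were called higher and 7 lower, that is 20% and 8.24%, beside 24.1% and 7.68% of all tested genes. The same shares of all tested genes stand beside the counts of each list that follows. Their median log2 fold change was 0.11, beside 0.15 for all tested genes. The split between directions depended on scaling, with 9 higher and 18 lower after upper-quartile scaling, 10 and 13 after median-ratio scaling, and 7 and 17 after quantile normalization, while over all tested genes 2547 higher and 811 lower became 1850 and 1794, 1953 and 1535, and 1670 and 1811.

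Of 8 tested transcription factors of the zona genes, 0 were called higher and 1 lower by limma, and 1 and 1 had an unadjusted p under 0.05 (median log2 fold change 0.13). The called gene was *Lhx8*, a LIM homeobox factor of early oocytes, at 51.3, 43.2 and 46.2 FPKM in *Bnc1*tr/tr and 93.0, 77.9 and 59.3 FPKM in WT (log2 fold change -0.68, limma adjusted p = 0.030). Its call held in 13 of 21 alternatives, and was lost when any library other than WT replicate 3 was left out (limma adjusted p = 0.053 to 0.096). *Figla* was at 72.5, 74.9 and 90.5 FPKM in *Bnc1*tr/tr and 111, 89.99 and 100 FPKM in WT. Its ranges overlapped narrowly and it was not called (log2 fold change -0.34, adjusted p = 0.16). *Figla* and other genes that were not called are given here for their known roles, chosen after their values were seen.

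Of 10 tested genes of zona protein processing and glycosylation, 1 was called higher and 3 lower (median 0.16). *Hspa5*, which encodes the chaperone BiP, was at 66.2, 47.8 and 74.5 FPKM in *Bnc1*tr/tr and 132, 148 and 79.3 FPKM in WT (log2 fold change -0.89, limma adjusted p = 0.032). *Pdia3*, a disulfide isomerase, was at 30.5 ± 6.20 against 54.3 ± 13.2 FPKM (SD, n = 3 each), with a log2 change of -0.80 (limma adjusted p = 0.028), and *Canx*, the chaperone calnexin and outside the naming rule, at 47.1 ± 5.69 against 82.3 ± 10.5 FPKM, one of -0.79 (limma adjusted p = 0.0088). Of 21 alternative settings, *Hspa5* and *Pdia3* were called lower in 13 each, and *Canx* in 19. For *Hspa5* and *Pdia3*, as for *Zp2* and *Zp3*, WT replicate 3 was the WT library nearest to *Bnc1*tr/tr. *Calr*, the related chaperone calreticulin, overlapped between the groups at 106 ± 12.4 and 91.7 ± 16.5 FPKM (adjusted p = 0.44). The proprotein convertase gene *Pcsk6* was at 12.1, 8.82 and 6.27 FPKM in *Bnc1*tr/tr and 2.26, 0.95 and 1.04 FPKM in WT, and was called higher (log2 fold change 2.06, limma adjusted p = 0.00057), whereas *Furin*, another convertase, was at 2.55 ± 0.363 and 2.35 ± 0.0757 FPKM (SD, n = 3 each).

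Of 10 tested genes of cortical granule traffic and exocytosis, which serve the release of ovastacin, 1 was called higher and 0 lower by limma, and 1 and 2 had an unadjusted p under 0.05 (median log2 fold change -0.0038). *Vamp3*, a SNARE protein of vesicles, was at 73.4, 70.0 and 75.3 FPKM in *Bnc1*tr/tr and 30.98, 28.8 and 28.2 FPKM in WT (log2 fold change 1.29, limma adjusted p = 0.00030). All *Bnc1*tr/tr libraries were above all WT libraries, and the call held under each of 21 alternative settings. *Nsf*, the ATPase that separates SNARE complexes, and its partner *Napa* were lower without overlap and not called (log2 fold changes -0.51 and -0.91, adjusted p = 0.055 and 0.052).

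Of 13 tested tetraspanins other than *Cd9* and *Cd81*, or their partners, 3 were called higher and 1 lower (median 0.34). That is 23.1% and 7.69%, near the 24.1% and 7.68% of all tested genes. *Tspan12* was at 21.8, 35.6 and 25.8 FPKM in *Bnc1*tr/tr and 12.6, 7.07 and 10.7 FPKM in WT (log2 fold change 1.38, limma adjusted p = 0.0032). *Tspan31* was the reverse, at 9.20, 9.28 and 7.27 against 24.4, 26.7 and 17.4 FPKM (-1.30, limma adjusted p = 0.0014), and its call held under each of 21 alternatives. *Tspan5* was called higher (0.58, limma adjusted p = 0.031) but not under the 3 other scalings. *Cd63*, a tetraspanin of lysosomes that falls outside the naming rule, was called higher (1.88, limma adjusted p = 0.019), with 12.5 FPKM in *Bnc1*tr/tr replicate 1 and 2.26 and 2.48 FPKM in replicates 2 and 3. It averaged 0.487 FPKM in WT and passed the filter of 1 FPKM only through *Bnc1*tr/tr.

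Of 5 tested integrin subunits 2 were called higher and 0 lower by limma, and 3 and 0 had an unadjusted p under 0.05 (median log2 fold change 0.42). They were *Itga6*, at 37.1 ± 1.32 against 24.7 ± 2.39 FPKM (SD, n = 3 each) with a log2 change of 0.57 (limma adjusted p = 0.023), and *Itgb5*, outside the naming rule, at 1.73 ± 0.759 against 0.55 ± 0.286 FPKM. *Itgb5* passed the filter of 1 FPKM only through *Bnc1*tr/tr, so this count in favour of higher is in part set by the filter. *Itga6* was not called under the 3 other scalings. Of 22 tested genes that make and attach the GPI anchor on which JUNO depends, 5 were called higher and 1 lower (median 0.05). That is 22.7% and 4.55%, near the 24.1% and 7.68% of all tested genes. Among those called higher, *Pigw*, outside the naming rule, averaged 0.923 FPKM in WT and likewise passed the filter only through *Bnc1*tr/tr. *Pigl* was at 11.7 ± 2.83 against 5.98 ± 1.94 FPKM (SD, n = 3 each), with a log2 change of 0.88 (limma adjusted p = 0.028), *Pigb* at 15.4 ± 0.760 against 8.96 ± 1.61 FPKM (0.73, limma adjusted p = 0.013) and *Pgap2* at 5.66 ± 1.09 against 9.16 ± 1.27 FPKM (-0.62, limma adjusted p = 0.036). *Pgap2* was called lower under all 3 other scalings as well, *Pigb* was called higher under median-ratio scaling alone among them, and *Pigl* under none of them. Of the other named list genes, *Pcsk6* and *Tspan12* were called in 20 of 21 alternatives, *Pigb* in 15, *Pgap2* in 14, *Itga6* and *Tspan5* in 10 and *Pigl* in 9.

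**Figure D5:**
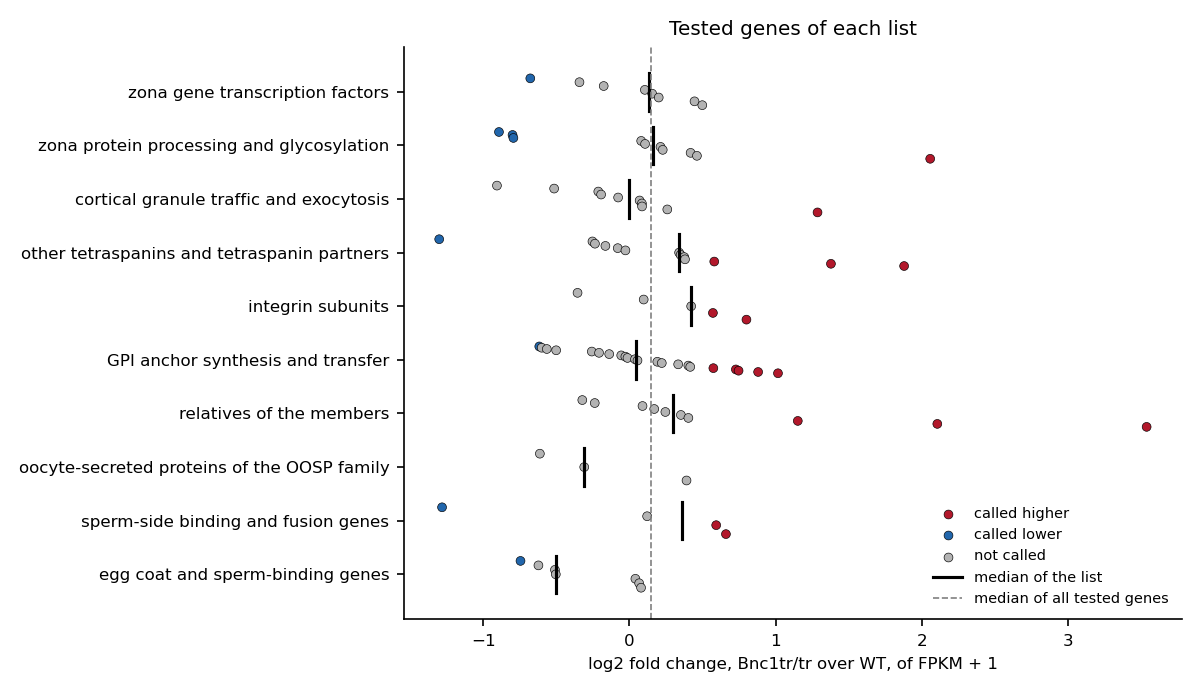
Log2 fold change of FPKM + 1, *Bnc1*tr/tr over WT (horizontal axis), of the tested genes of 9 lists and of the 7 egg coat and sperm-binding genes (bottom row), coloured by call, with the median of each list (black bar) and of all tested genes (dashed line, 0.15). The median of the 7 genes, -0.50, lies to the left of the dashed line, and the GPI anchor list holds genes called in both directions.

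Markers of other ovarian cells were measured beside these results. Summed levels in *Bnc1*tr/tr against WT libraries were 49.4 to 66.05 against 23.5 to 41.05 FPKM for 12 granulosa and cumulus genes, 6.12 to 8.53 against 1.73 to 2.27 FPKM for 6 theca and stroma genes, 9.72 to 35.02 against 0.86 to 1.71 FPKM for 5 surface epithelium genes, and 5.38 to 8.10 against 10.1 to 11.7 FPKM for 4 endothelial genes. Of the defining granulosa markers, *Foxl2* was at 0 in 5 libraries and *Amhr2* in 5, while *Cyp19a1* was the largest part of the granulosa and cumulus sum. *Fshr* was at 4.54 to 5.83 FPKM in *Bnc1*tr/tr against 0 to 0.74 FPKM in WT. *Cyp11a1* was at 5.29 to 6.08 against 0.60 to 2.17 FPKM, and *Kitl* at 1.94 to 3.10 against 1.12 to 1.18 FPKM. Other genes of this list had their highest value in WT, with overlapping ranges. *Inha* was at 0.09 to 1.81 against 0.04 to 6.78 FPKM, *Hsd17b1* at 0 to 0.38 against 0 to 1.43 FPKM, and *Fst* at 0 to 0.16 against 0.04 to 0.63 FPKM. Of the 6 tested genes of this list, 3 were called higher and 0 lower by limma, beside 24.1% and 7.68% of all tested genes. For 10 immune genes the sums were 60.5 to 147 against 66.2 to 97.3 FPKM, and for 3 erythroid genes 0 to 10.1 against 0 FPKM. *C1qb* alone, at 53.1 to 70.7 against 64.8 to 95.3 FPKM, was the largest part of the immune sum in every library. Among endothelial genes, *Pecam1* was lower at 3.16 to 5.13 against 7.55 to 9.92 FPKM, whereas *Kdr* was higher at 0.53 to 1.54 against 0.07 to 0.12 FPKM. *Tyrobp*, *Fcer1g*, *Cd52* and *Lyz2* were above 0 in *Bnc1*tr/tr replicates 1 and 2 and listed at 0 in the other 4 libraries. *Zp2*, *Zp3*, *Cd9* and *Izumo1r* in *Bnc1*tr/tr replicate 3, where these 4 immune genes were at 0, were at 424, 1993, 207 and 151 FPKM. Other immune genes were above 0 in that library, with *C1qb* at 58.6, *Cd68* at 0.96 and *C1qa* at 0.61 FPKM. In that library the granulosa, theca and surface epithelium sums were 51.15, 6.12 and 9.72 FPKM, above every WT library. The part of other cells' transcripts in the levels of the 7 genes was not tested.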

How the data were processed

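The authors deposited a table of FPKM values per library, rounded to 2 decimals, for the same 17577 genes. Per the submitters' processing notes, HISAT2 2.0.4, Bowtie2 2.2.5, RSEM 1.2.12 and GRCm38.p6 were used, and their roles, the annotation and any gene filter are not given in the sources used here. Symbols that a spreadsheet had turned into dates (25) were restored through the NCBI Gene ID.

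Groups were taken from the genotype in the labels. The 10560 genes that averaged 1 FPKM or more over the libraries entered a limma fit (version 3.58.1, R 4.3.3) of log2(FPKM + 1), which understates changes of low genes, with Benjamini-Hochberg adjustment over all of them. A gene that averaged under 1 FPKM in WT, such as *Cd63*, *Itgb5* or *Pigw*, passed this filter only through *Bnc1*tr/tr. Thresholds (adjusted p under 0.05, absolute log2 fold change over 0.5) follow the study. For within-library ratios the permutation test was exact and two-sided. The limma and depth scripts were tested on simulated data. Gene positions and 31-base words came from GENCODE M21. Depth was estimated from the spacing of low FPKM values and entered no test.

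The genes and lists were chosen with earlier results of these data known. Named were the 7 genes, *Bnc1*, up to 3 called genes per list by largest absolute log2 fold change (mean of at least 5 FPKM, no overlap), and the 3 genes most like each of the 7. Exceptions are marked. Alternatives were a pseudocount of 0.1, other filters, scalings and fold thresholds, trended robust variances, a replicate block and leaving out each library. A further 3, chosen after seeing the data, left out WT replicate 3 under median-ratio or quantile scaling, or *Bnc1*tr/tr replicates 1 and 2 together. SciPy 1.17.1 and matplotlib 3.10.9 were used.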

Additional observations from a re-analysis of the deposited data

How the results depend on the processing

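The number of the 7 genes called lower, 1 in the ordinary fit, was 4 with upper-quartile scaling, median-ratio scaling or trended robust variances, 0 with a pseudocount of 0.1 or a fold threshold of 1 on the log2 scale, and 0 to 4 when each library was left out, the 4 without WT replicate 3. Among alternatives chosen after seeing the data, it was 5 with median-ratio scaling without WT replicate 3 and 4 with quantile normalization without it, beside 16.7% and 17.7% of all tested genes, and 0 with *Bnc1*tr/tr replicates 1 and 2 left out, where the lone library of that group is assumed to vary like WT. With no filter on low values it was again 1, but a different gene: *Cd9* was called (limma adjusted p = 0.04987) and *Zp2* was not (0.062), beside 3.82% of 17577 genes called lower. None of the 21 alternatives called any of the 7 higher. *Zp2* stayed lower in all 21 and was called in 12, and *Zp3*, *Cd9* and *Izumo1r* stayed lower in all 21 and were called in 6, 7 and 6. *Bnc1* was called lower in 19.

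The log2 fold changes of *Zp1*, *Astl* and *Cd81* turned below 0 in several settings: -0.23, -0.20 and -0.061 with upper-quartile scaling, -0.18, -0.15 and -0.031 with median-ratio scaling, -0.57, -0.50 and -0.16 with that scaling without WT replicate 3, and -0.43, -0.35 and -0.45 with quantile normalization without it. Quantile normalization alone gave -0.031 for *Astl* and -0.33 for *Cd81*, and leaving out *Bnc1*tr/tr replicates 1 and 2 gave -0.11 for *Zp1* and -0.16 for *Cd81*. Leaving out each library gave -0.39 to 0.32 for *Zp1*, -0.32 to 0.27 for *Astl* and -0.17 to 0.21 for *Cd81*, and -0.057 to 0.10 for the log2 difference of *Izumo1r* per *Cd9*. Apart from scaling and the libraries dropped, the cause of these turns was not tested. *Zp1* was called lower once, with median-ratio scaling without WT replicate 3 (limma adjusted p = 0.030).

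List genes called higher, 17, became 10 with a minimum mean of 5 FPKM, 9 with upper-quartile scaling, 10 with median-ratio scaling (9 without WT replicate 3), 7 with quantile normalization (7 without WT replicate 3), 8 with a log2 fold threshold of 1, 2 without *Bnc1*tr/tr replicates 1 and 2, and 8 to 15 when each library was left out. Those called lower, 7, became 18, 13 (16), 17 (15), 2 and 1 in the same settings from upper-quartile scaling on, and 3 to 10 when each library was left out.

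Deviations from the group mean correlated at 0.28, -0.034 and 0.12 between same-numbered libraries of the genotypes, for numbers 1 to 3. These values do not tell whether the libraries were paired. The study states that its comparisons were between littermates, and the labels do not tie a library to a litter. With a replicate block 1 of the 7 genes was again called lower (*Zp2*, limma adjusted p = 0.036), beside 9.02% of all tested genes, and the exact p of the ratios could not go below 0.25.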

Other observations

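Relatives of the 7 genes were also measured. Of 10 tested, 3 were called higher and 0 lower by limma, the same counts as at an unadjusted p under 0.05. Over all tested genes 24.1% were called higher and 7.68% lower. The 3 called, *Folr1*, *Cuzd1* and *Tectb*, averaged 0.127, 0.0867 and 0.31 FPKM in WT. They passed the filter of 1 FPKM only through *Bnc1*tr/tr, so this count in favour of higher is in part set by the filter. *Folr1*, a folate receptor of the family to which JUNO belongs, was at 15.7, 9.99 and 10.7 FPKM in *Bnc1*tr/tr and at 0.38 FPKM in WT replicate 1, and was listed at 0 in the other two WT libraries. Its log2 fold change on the FPKM + 1 scale was 3.54 (limma adjusted p = 8.5e-06), higher in 3 of 3 libraries, and it was called under all 21 alternatives. *Cuzd1*, a protein with a ZP domain, was at 3.22, 4.39 and 3.43 FPKM in *Bnc1*tr/tr and at 0.23, 0.03 and 0 FPKM in WT, and *Tectb*, an inner ear matrix protein with a ZP domain, was at 1.38, 3.61 and 1.24 against 0.35, 0.32 and 0.26 FPKM. Both fall outside the naming rule and were picked after their values were seen. Summed levels of surface epithelium markers were also higher in *Bnc1*tr/tr, 9.72 to 35.02 against 0.86 to 1.71 FPKM, and their part in *Folr1*, *Cuzd1* and *Tectb* was not tested. *Umodl1*, a ZP domain gene, was more abundant than *Zp1*, at 676 ± 50.9 FPKM in *Bnc1*tr/tr and 849 ± 124 FPKM in WT (SD, n = 3 each), and was not called (log2 fold change -0.32, limma adjusted p = 0.19).

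Of the 3 genes of the oocyte-secreted OOSP family, 0 were called in either direction by limma, and 1 was lower and 0 higher at an unadjusted p under 0.05. *Oosp1* was at 1793, 1422 and 1819 FPKM in *Bnc1*tr/tr and 1167, 1283 and 1376 FPKM in WT, higher without overlap (log2 fold change 0.39, limma adjusted p = 0.12). *Oosp2* was at 1088, 1380 and 1360 FPKM in *Bnc1*tr/tr and 1539, 1734 and 2734 FPKM in WT, lower without overlap (log2 fold change -0.61, limma adjusted p = 0.080). *Oosp3* was at 1106, 1017 and 1213 FPKM in *Bnc1*tr/tr and 1104, 1222 and 1922 FPKM in WT, with overlap (log2 fold change -0.31, limma adjusted p = 0.33). In *Oosp2* and *Oosp3*, unlike the zona genes, WT replicate 3 was the highest library.

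Genes known for the sperm side of binding and fusion were mostly low. Of 19 listed, 13 were in the tables and 4 were tested, with 2 called higher and 1 lower. *Spam1*, a sperm hyaluronidase, was at 48.6, 42.4 and 35.1 FPKM in *Bnc1*tr/tr and 29.5, 24.7 and 24.1 FPKM in WT (log2 fold change 0.66, limma adjusted p = 0.023), and was called in 12 of 21 alternatives, not under upper-quartile or median-ratio scaling. *Zp3r*, outside the naming rule, was lower at 1.48 ± 0.603 against 5.0 ± 1.28 FPKM (SD, n = 3 each), with a log2 change of -1.28 (limma adjusted p = 0.0029).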
